A study of Homo sapiens with 20 samples.

Results

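The genes described are 8 chemotactic or related G protein-coupled receptors (CCR1, PTAFR, EDNRB, P2RY10, GPR183, CXCR4, CCR7 and CXCR5) and 2 regulators of G protein signalling (RGS1 and RGS13). The set was drawn up around receptors and regulators with large falls under a BET inhibitor against its inactive enantiomer, joined by related lymphocyte genes. Each of the 10 genes is measured by 1 probe set that carries no other gene symbol, among 14232 genes measured in this way and 22011 probe sets in all. Because these falls chose the genes, every difference of the 10 genes that involves a treated array is given as a description, without a test.

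The receptors cross the cell membrane and sense ligands outside the cell. When a chemokine, lipid, nucleotide or peptide binds, the receptor activates a heterotrimeric G protein, and the freed subunits drive enzymes that rearrange actin and move the cell. RGS proteins speed the hydrolysis of GTP by the alpha subunit and so shorten the signal. In B lymphocytes these receptors guide cells into and out of follicles, germinal centres and bone marrow. BET proteins bind acetylated histones and take part in the transcription of nearby genes.

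Total RNA was measured on exon arrays in 2 human cell lines, LP-1 from multiple myeloma, a plasma cell tumour, and Raji from Burkitt lymphoma, a germinal centre B cell tumour. In each line the groups were BET inhibitor for 4 h and for 8 h, its inactive enantiomer (the mirror image of the inhibitor) for the same times, each compound at 500 nM, and cells with no compound at 0 h. There were 2 arrays per group, 20 in all, described in the labels as biological replicates. The labels do not name the compound, LP-1 and Raji were grown in different media, and each tumour type is represented by 1 line. No untreated or vehicle culture was sampled at 4 or 8 h, so a comparison with untreated cells joins compound and time in culture.

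All values are log2 expression after RMA, the normalization and summary method used by the submitters, so a difference of 1 is a doubling. Array medians ran between 5.13 and 5.39, and the correlation between replicates between 0.973 and 0.989 over all probe sets. The 75th percentile of the arrays ran between 6.75 and 7.23. Its lowest value in LP-1 was 6.80, on replicate 1 with BET inhibitor at 4 h (7.03 on replicate 2), and its lowest in Raji was 6.75, on replicate 1 with inactive enantiomer at 4 h (6.85 on replicate 2). Differences at 4 h are given below with and without these arrays. Other groups also had gaps between replicates, such as 6.91 and 7.07 in LP-1 with inactive enantiomer at 8 h. Of the plasma cell markers fixed for the check, 6 of 6 were lower in untreated Raji than in untreated LP-1, and 6 of the 6 measured B cell markers, of 7 listed, were higher. None of the 10 T and NK cell markers and none of the 9 measured myeloid markers, of 11 listed, differed. Mean levels of the T and NK cell list were 3.75 to 3.95 in Raji and 3.68 to 4.03 in LP-1. Mean levels of the myeloid list were 3.63 to 3.97 in Raji and 3.65 to 3.95 in LP-1.

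In LP-1 the inhibitor arrays were far below both kinds of control array for CCR1, and clearly below them for EDNRB, P2RY10 and RGS1. In Raji the same was true of PTAFR and GPR183, whereas the differences of CCR7, CXCR5 and RGS13 from inactive enantiomer lay between -0.55 and 0.46 in both lines. At 4 h in LP-1, 6 of the 10 genes had both inhibitor arrays below both inactive arrays (CCR1, PTAFR, EDNRB, P2RY10, CXCR4 and RGS1), where 26.4% of all probe sets did. At 8 h in LP-1 the count was again 6 (CCR1, EDNRB, P2RY10, CXCR4, CXCR5 and RGS1), against 16.3% of all probe sets. In Raji the count was 5 at 4 h (PTAFR, EDNRB, P2RY10, GPR183 and RGS1), against 20.2% of all probe sets, and 4 at 8 h (PTAFR, GPR183, RGS1 and RGS13), against 20% of all probe sets. Without Raji inactive replicate 1 at 4 h the Raji count at that time was 9 of 10. The share of 20.2% does not apply to that count, since a single inactive array is easier to lie below. No share was taken for it. Both inhibitor arrays were above both inactive arrays for GPR183 in LP-1 at 4 h, where 17.6% of all probe sets were above, for 0 genes in LP-1 at 8 h (27.9%), for 0 in Raji at 4 h (23.5%) and for CXCR4 in Raji at 8 h (20.3%). Nothing is read from these counts, since the genes were chosen on the same comparisons. RGS1 was the one gene of the 10 with both inhibitor arrays below both inactive arrays in all 4 comparisons, as were 2.04% of all probe sets. Nothing is read from this either. In Raji at 8 h its inhibitor arrays (4.51 and 4.67) lay between the untreated arrays (4.89 and 4.47).

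The median log2 difference of the 10 genes between BET inhibitor and inactive enantiomer was -0.84 at 4 h and -0.32 at 8 h in LP-1, and -0.22 at 4 h and -0.43 at 8 h in Raji. Over all probe sets the medians were -0.04 and 0.06 in LP-1 and 0.01 and 0 in Raji, in the same order of times. For the 10 genes the differences of inactive enantiomer minus untreated lay between -0.47 and 0.46 in LP-1 and between -0.51 and 0.48 in Raji. The comparisons of inhibitor with inactive enantiomer and of inactive enantiomer with untreated cells share the inactive arrays.

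**Figure D1:**
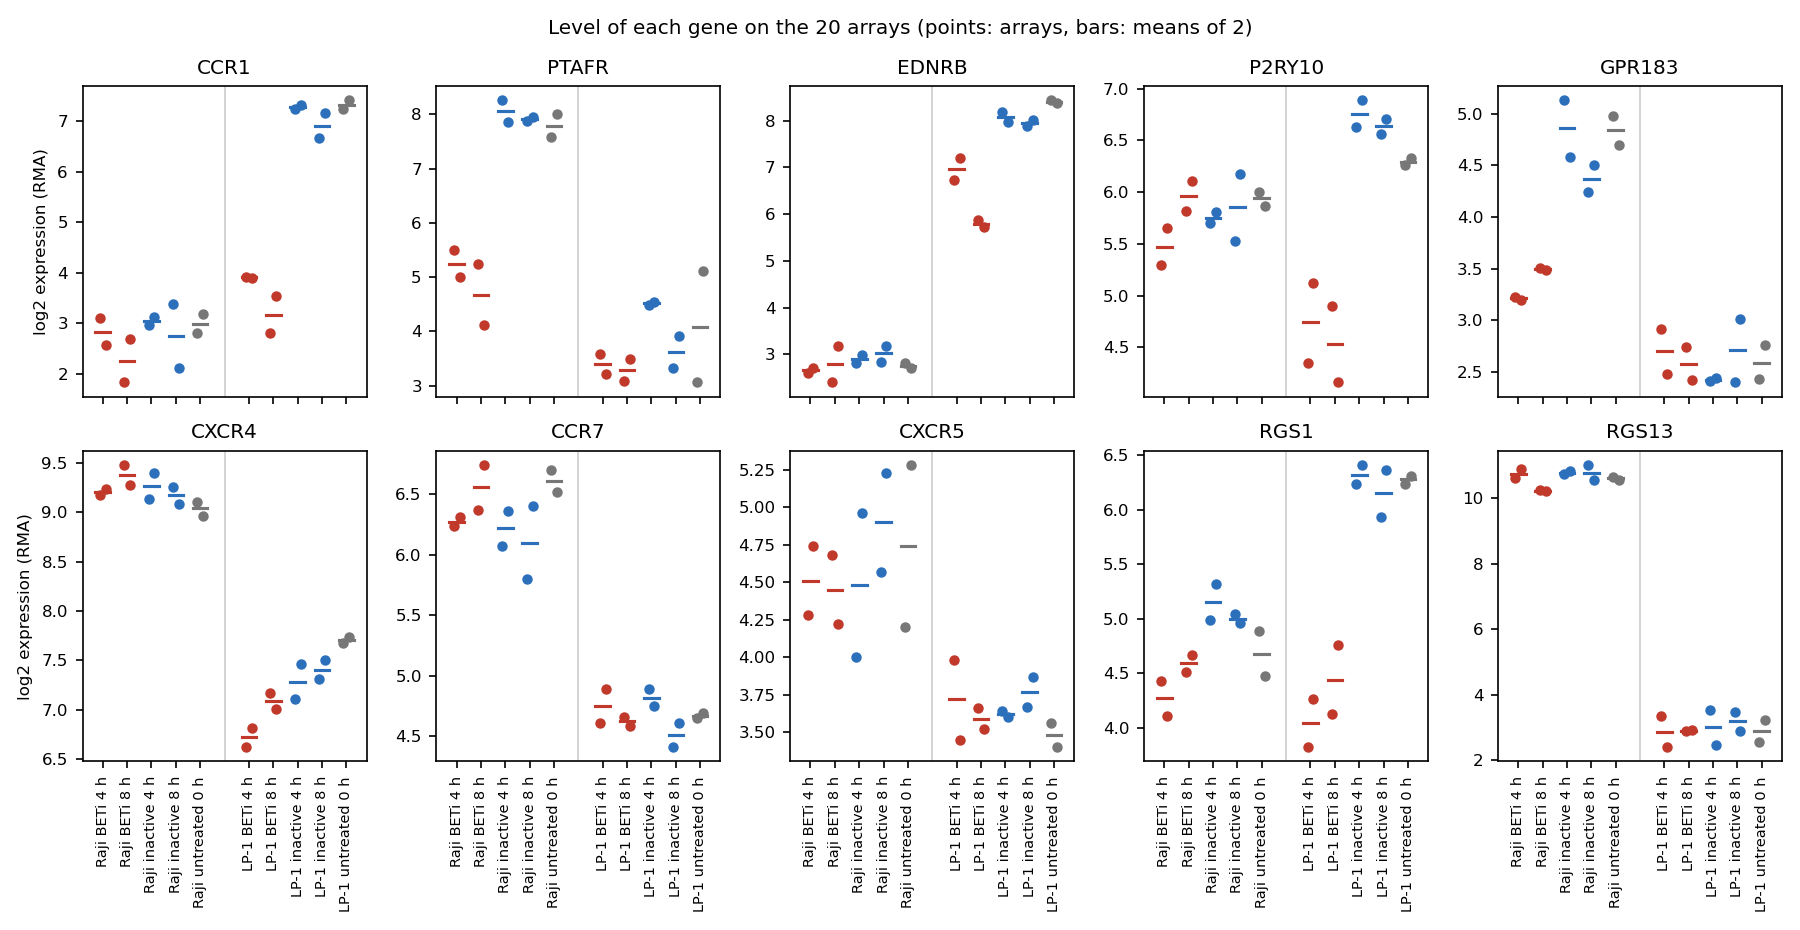
Level of each of the 10 genes on the 20 arrays (vertical axis, log2 expression after RMA, with its own range in each panel). Points are arrays and bars are means of 2; red is BET inhibitor, blue inactive enantiomer and grey untreated, with Raji left of the line and LP-1 right of it. CCR1, EDNRB, P2RY10 and RGS1 have low red points in LP-1, and PTAFR and GPR183 have low red points in Raji.

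CCR1 is a receptor for CCL3 and CCL5, inflammatory chemokines that myeloma cells and their bone marrow neighbours can secrete. In LP-1 its level was 3.92 and 3.89 with BET inhibitor at 4 h and 2.80 and 3.54 at 8 h. It was 7.24 and 7.33 with inactive enantiomer at 4 h, 6.67 and 7.16 with inactive enantiomer at 8 h, and 7.24 and 7.42 in untreated LP-1. All 4 inhibitor arrays therefore lay well below all 6 control arrays, with no overlap. The difference between inhibitor and inactive enantiomer was -3.38 ± 0.39 at 4 h and -3.74 ± 0.39 at 8 h (log2 ± SE, n = 2 each). No fold is given, since the inhibitor arrays were dim for CCR1, at percentiles 12.2 to 26.3 of the probe sets, and the files hold no detection call. At 4 h it was -3.39 without inhibitor replicate 1. The arrays measured the RNA of whole cultures, so fewer cells expressing a gene and less of its RNA per cell cannot be told apart. In Raji the 10 CCR1 values ran between 1.83 and 3.39, at percentiles 4 to 20.1 of the probe sets on their arrays, and the inhibitor and control arrays overlapped. The Raji difference at 4 h was -0.21, and -0.29 without inactive replicate 1.

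PTAFR is the receptor for platelet-activating factor, a phospholipid mediator of inflammation. In Raji it stood at 5.50 and 5.0 with BET inhibitor at 4 h and 5.25 and 4.12 at 8 h. The inactive enantiomer gave 8.26 and 7.86 at 4 h and 7.87 and 7.95 at 8 h, and untreated Raji had 7.58 and 8.00. The highest inhibitor array was thus more than 2 log2 units below the lowest control array. The difference was -2.81 ± 0.52 at 4 h and -3.23 ± 0.52 at 8 h (log2 ± SE, n = 2 each), or 7.02-fold and 9.36-fold lower with inhibitor than with inactive enantiomer, and -2.61 at 4 h without inactive replicate 1. In LP-1 the level was lower throughout and less even: 3.59 and 3.21 with inhibitor at 4 h, 3.09 and 3.50 with inhibitor at 8 h, 4.49 and 4.55 with inactive enantiomer at 4 h, 3.33 and 3.91 with inactive enantiomer at 8 h, and 3.06 and 5.11 in untreated cells. The untreated LP-1 replicates of PTAFR spanned the whole range of that line, so the LP-1 difference of -1.12 ± 0.52 at 4 h was no larger than the gap between those replicates. It was -1.31 without inhibitor replicate 1, and -0.33 ± 0.52 at 8 h.

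CCR1 and PTAFR had the largest differences in LP-1 and in Raji, and the 250 bases before their start sites are shown for that reason, from RefSeq on GRCh38.p14 (the authors' values were made on hg19). The CCR1 stretch is chr3:46208314-46208563 and the PTAFR stretch is chr1:28193857-28194106, both on the minus strand and both printed 5′ to 3′ in the direction of the gene. Capitals mark matches to 6 motifs searched on both strands: TATAAA, ATGCAAAT (the octamer), CACGTG (an E-box), TGANTCA (AP-1), AGGAAG (an ETS core) and the NF-kB letters, which are GGG, any 2 bases, TT, any base and CC. In the others N is any base.
CCR1: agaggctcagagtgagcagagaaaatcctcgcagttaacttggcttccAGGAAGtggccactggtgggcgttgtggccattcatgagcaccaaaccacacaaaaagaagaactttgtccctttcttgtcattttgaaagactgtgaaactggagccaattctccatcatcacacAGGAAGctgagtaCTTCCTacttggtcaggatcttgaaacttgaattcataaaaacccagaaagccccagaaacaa
PTAFR: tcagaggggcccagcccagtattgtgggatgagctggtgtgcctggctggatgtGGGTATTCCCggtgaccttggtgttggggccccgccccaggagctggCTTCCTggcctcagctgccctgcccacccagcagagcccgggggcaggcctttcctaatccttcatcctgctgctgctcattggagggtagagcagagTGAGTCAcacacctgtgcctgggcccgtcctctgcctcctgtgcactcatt
The CCR1 stretch holds the ETS letters 3 times, beginning 202, 76 and 63 bases before the start, the last on the opposite strand. The PTAFR stretch holds the NF-kB letters 196 bases, the ETS letters on the opposite strand 149 bases, and the AP-1 letters 51 bases before the start. Of 27305 promoters in the table, 28.7% hold AGGAAG, 5.08% the NF-kB letters, 6.6% TGANTCA, 11.1% TATAAA, 6.49% CACGTG and 1.66% ATGCAAAT. Promoters were found for 9 of the 10 genes: AGGAAG occurs in those of CCR1, CXCR4, P2RY10 and PTAFR, the NF-kB letters in P2RY10 and PTAFR, TGANTCA in PTAFR and TATAAA in CXCR4, GPR183 and RGS1. The octamer and the E-box occur in 0 of the 9. A match describes letters in this window and shows no binding.

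EDNRB, the type B receptor for endothelin peptides, had 6.74 and 7.20 in LP-1 with BET inhibitor at 4 h and 5.87 and 5.72 at 8 h. LP-1 with inactive enantiomer had 8.18 and 7.98 at 4 h and 7.88 and 8.01 at 8 h, and untreated LP-1 had 8.44 and 8.37. The inhibitor arrays lay below every control array at both times, and the 8 h arrays lay below the 4 h arrays. The difference was -1.11 ± 0.22 at 4 h and -2.15 ± 0.22 at 8 h (log2 ± SE, n = 2 each). EDNRB was the LP-1 gene among the 10 with the widest gap between times, the 8 h difference minus the 4 h difference being -1.04 ± 0.32, and its 4 h value was -0.88 without inhibitor replicate 1. All 10 Raji arrays had EDNRB between 2.40 and 3.19, with inhibitor differences of -0.24 at 4 h (-0.33 without inactive replicate 1) and -0.22 at 8 h. In RefSeq, EDNRB overlaps EDNRB-AS1 and RN7SL810P, and the place of the array's probes was not used here.

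P2RY10, a lymphoid receptor that responds to lysophosphatidylserine, had 4.35 and 5.12 in LP-1 with BET inhibitor at 4 h and 4.90 and 4.16 at 8 h. With inactive enantiomer LP-1 had 6.63 and 6.89 at 4 h and 6.56 and 6.71 at 8 h, and untreated LP-1 had 6.26 and 6.33. Again no inhibitor array reached the lowest control array. The difference was -2.02 ± 0.29 at 4 h, or 4.06-fold lower with inhibitor, and -2.11 ± 0.29 at 8 h, or 4.31-fold lower (log2 ± SE, n = 2 each). Without inhibitor replicate 1 it was -1.63 at 4 h. In Raji, where P2RY10 lay at percentiles 52 to 66.3, the values were 5.30 and 5.65 with inhibitor at 4 h, 5.82 and 6.11 with inhibitor at 8 h, 5.70 and 5.81 with inactive enantiomer at 4 h, 5.53 and 6.18 with inactive enantiomer at 8 h, and 6.0 and 5.87 untreated. The Raji differences of -0.28 ± 0.29 and 0.10 ± 0.29 had 95% intervals of -0.90 to 0.35 and -0.52 to 0.73, and the first was -0.34 without inactive replicate 1. Raji minus LP-1, the P2RY10 response differed by 1.74 ± 0.41 at 4 h and 2.21 ± 0.41 at 8 h, which was not tested.

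GPR183, also called EBI2, is an oxysterol receptor that positions activated B cells at the edge of follicles. Raji had 3.23 and 3.20 with BET inhibitor at 4 h and 3.51 and 3.49 at 8 h. Raji with inactive enantiomer had 5.13 and 4.58 at 4 h and 4.24 and 4.50 at 8 h, and untreated Raji had 4.98 and 4.70. The 4 inhibitor arrays lay below all 6 controls. They were dim, at percentiles 18 to 21.7 of the probe sets against 32.5 to 50 for the controls, so the size of the difference is uncertain. The difference was -1.64 ± 0.24 at 4 h and -0.87 ± 0.24 at 8 h (log2 ± SE, n = 2 each), and -1.37 at 4 h without inactive replicate 1. The 8 h inactive arrays were also lower than the untreated ones, by -0.47 ± 0.24, so the smaller difference at 8 h came with a lower control level as well as a higher inhibitor level. Against untreated Raji the differences were -1.62 ± 0.24 at 4 h and -1.34 ± 0.24 at 8 h. In LP-1 GPR183 was dim, 2.40 to 3.01 at percentiles 9.3 to 15.6, with differences of 0.28 ± 0.24 at 4 h and -0.13 ± 0.24 at 8 h and 0.06 at 4 h without inhibitor replicate 1. GPR183 overlaps UBAC2 in RefSeq.

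CXCR4, the CXCL12 receptor that holds plasma cells and B cells in bone marrow, had in LP-1 6.62 and 6.82 with BET inhibitor at 4 h and 7.17 and 7.01 at 8 h. The inactive enantiomer gave 7.11 and 7.46 at 4 h and 7.31 and 7.50 at 8 h, and untreated LP-1 had 7.68 and 7.74. The groups did not overlap at either time, but both inactive groups were also below the untreated arrays, by -0.43 ± 0.15 at 4 h and -0.31 ± 0.15 at 8 h. The LP-1 difference of inhibitor minus inactive enantiomer was -0.57 ± 0.15 at 4 h and -0.32 ± 0.15 at 8 h (log2 ± SE, n = 2 each), and at 4 h it was -0.46 without inhibitor replicate 1 and -0.36 after quantile normalization. Raji CXCR4 lay between 8.96 and 9.48 on all 10 arrays, and its differences were -0.06 ± 0.15 at 4 h (-0.19 without inactive replicate 1) and 0.20 ± 0.15 at 8 h.

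CCR7 and CXCR5, which draw lymphocytes to the T cell zone and the B cell follicle of lymph nodes, had smaller differences. CCR7 ranged between 5.80 and 6.74 in Raji and between 4.41 and 4.89 in LP-1. Its largest difference was 0.46 ± 0.19 in Raji at 8 h, with inhibitor arrays at 6.37 and 6.74 and inactive arrays at 5.80 and 6.40, which overlap. At 4 h it was 0.06 in Raji and -0.09 without inactive replicate 1, and -0.08 in LP-1 and 0.06 without inhibitor replicate 1. CXCR5 ranged between 4.00 and 5.28 in Raji and between 3.40 and 3.98 in LP-1. The CXCR5 differences ran between -0.46 and 0.10, with an SE of 0.37, and at 4 h in Raji the value of 0.03 became -0.45 without inactive replicate 1. In LP-1 the 4 h value of 0.10 became -0.17 without inhibitor replicate 1. In RefSeq CXCR5 overlaps BCL9L and LOC124902767.

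RGS1 and RGS13 are neighbouring RGS genes on chromosome 1, and RGS1 is known to dampen chemokine responses of B cells while RGS13 is a gene of germinal centre B cells. RGS1 had 3.82 and 4.26 in LP-1 with BET inhibitor at 4 h and 4.13 and 4.76 at 8 h. LP-1 with inactive enantiomer had 6.24 and 6.41 at 4 h and 5.93 and 6.36 at 8 h, and untreated LP-1 had 6.24 and 6.31. No inhibitor array came within 1 log2 unit of a control array. The LP-1 difference was -2.28 ± 0.23 at 4 h, or 4.87-fold lower with inhibitor, and -1.70 ± 0.23 at 8 h, or 3.25-fold lower (log2 ± SE, n = 2 each), and it was -2.07 at 4 h without inhibitor replicate 1. The LP-1 inhibitor arrays lay at percentiles 24.6 to 39.6 of the probe sets for RGS1, so the size of these folds is uncertain. RGS1 overlaps LOC105371664 in RefSeq.

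Raji RGS1 was 4.43 and 4.11 with BET inhibitor at 4 h and 4.51 and 4.67 at 8 h, against 4.99 and 5.32 with inactive enantiomer at 4 h, 5.04 and 4.96 with inactive enantiomer at 8 h, and 4.89 and 4.47 untreated. The inhibitor arrays were below the inactive arrays of their own time, and at 8 h they fell between the untreated arrays. The Raji difference from inactive enantiomer was -0.88 ± 0.23 at 4 h (-1.05 without inactive replicate 1) and -0.41 ± 0.23 at 8 h. From untreated Raji it was -0.41 ± 0.23 and -0.09 ± 0.23, the inactive arrays being above the untreated ones by 0.48 ± 0.23 at 4 h and 0.32 ± 0.23 at 8 h.

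RGS13 was near the top of the Raji arrays, at percentiles 96.5 to 98. It had 10.62 and 10.89 with BET inhibitor at 4 h, 10.26 and 10.22 with inhibitor at 8 h, 10.73 and 10.85 with inactive enantiomer at 4 h, 11.02 and 10.56 with inactive enantiomer at 8 h, and 10.66 and 10.57 untreated. The 4 h groups overlapped and the 8 h inhibitor arrays lay just below every control array. The Raji difference was -0.03 at 4 h (-0.09 without inactive replicate 1) with a 95% interval of -0.83 to 0.76, and -0.55 at 8 h with an interval of -1.35 to 0.25. In LP-1 the gene was dim, at 2.39 to 3.54, and its differences were -0.13 at 4 h and -0.29 at 8 h. The 4 h value was -0.62 without inhibitor replicate 1 and ran between -0.67 and 0.40 over the alternatives.

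The stretches before the start sites of RGS1 and RGS13 are shown because these genes of the set are neighbours and relatives. At 8 h in Raji both had inhibitor arrays below the inactive arrays, by -0.41 for RGS1 and -0.55 for RGS13, as did 20% of all probe sets. Both 95% intervals spanned no change (-0.92 to 0.10 for RGS1 and -1.35 to 0.25 for RGS13). The RGS1 inhibitor arrays also lay between the untreated arrays. The stretches are chr1:192575523-192575772 and chr1:192635897-192636146, both on the plus strand of GRCh38.p14 in RefSeq, with the same motifs in capitals.
RGS1: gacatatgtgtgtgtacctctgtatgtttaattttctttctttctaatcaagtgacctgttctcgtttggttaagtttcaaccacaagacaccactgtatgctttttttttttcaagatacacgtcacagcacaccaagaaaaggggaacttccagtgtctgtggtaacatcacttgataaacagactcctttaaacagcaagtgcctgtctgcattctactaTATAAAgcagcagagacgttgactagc
RGS13: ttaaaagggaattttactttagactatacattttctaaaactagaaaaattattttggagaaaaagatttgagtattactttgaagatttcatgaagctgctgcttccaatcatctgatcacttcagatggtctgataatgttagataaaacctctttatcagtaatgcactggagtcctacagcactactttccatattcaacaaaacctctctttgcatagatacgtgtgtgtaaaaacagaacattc
RGS1 has TATAAA 27 bases before the start, and none of the 6 motifs is found in the RGS13 stretch.

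**Figure D2:**
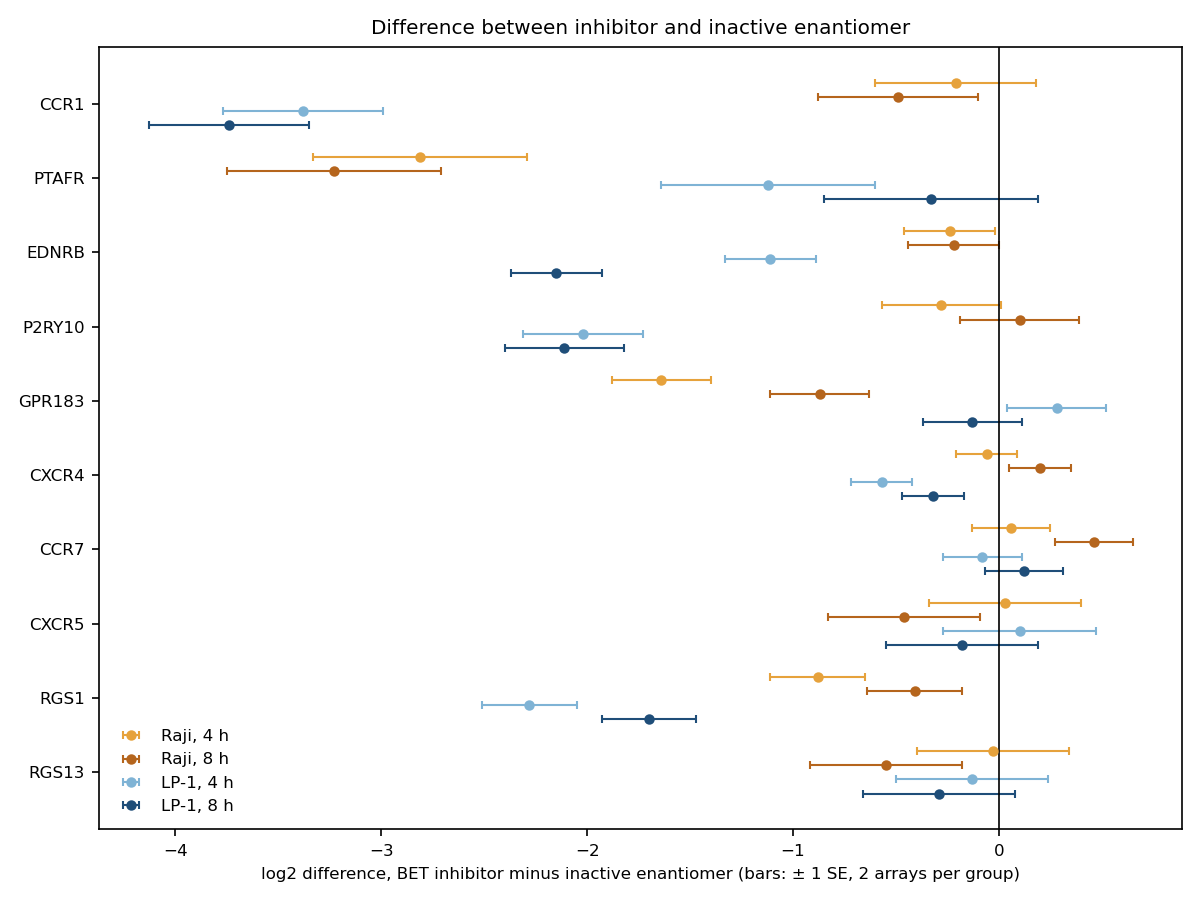
Difference of BET inhibitor minus inactive enantiomer (horizontal axis, log2, bars ± 1 SE, 2 arrays per group) for the 10 genes in Raji (orange, 4 h light and 8 h dark) and LP-1 (blue, 4 h light and 8 h dark). CCR1 reaches -3.74 in LP-1 and PTAFR -3.23 in Raji, while CCR7 lies between -0.08 and 0.46 and RGS13 between -0.55 and -0.03.

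Set side by side, the lines differed most in CCR1, whose response in Raji minus that in LP-1 was 3.17 ± 0.55 at 4 h and 3.25 ± 0.55 at 8 h. For PTAFR the same quantity was -1.69 ± 0.74 and -2.90 ± 0.74, for EDNRB 0.87 ± 0.32 and 1.93 ± 0.32, for GPR183 -1.92 ± 0.33 and -0.74 ± 0.33, and for RGS1 1.40 ± 0.33 and 1.29 ± 0.33. These values were not tested. CCR1 and EDNRB in Raji and GPR183 in LP-1 lay at or below percentile 20.1 on every array of that line.

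Untreated Raji was then compared with untreated LP-1, the one comparison of these genes that uses no treated array in its means. A gene chosen for a fall in one line had to be measurable there, so the line in which CCR1, PTAFR, EDNRB, GPR183 and RGS1 were higher was largely fixed by the choice, and the differences are given as a description. In limma, 6 of the 10 genes were higher and 3 lower in Raji at an adjusted p under 0.05 over all 22011 probe sets, where 6.79% of all probe sets were higher and 17.5% lower, 24.3% in all. Nothing is read from that count.

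RGS13 had 10.66 and 10.57 in Raji and 2.56 and 3.24 in LP-1, a difference of 7.71 ± 0.37 (log2 ± SE, Raji minus LP-1, n = 2 each). The difference was -5.64 ± 0.22 for EDNRB and -4.34 ± 0.39 for CCR1. The lower line was dim for each of the 3, LP-1 for RGS13 and Raji for EDNRB and CCR1, so no fold is given and the size of these differences is uncertain. PTAFR differed by 3.70 ± 0.52, and by 2.68 or 4.73 depending on which untreated LP-1 replicate was used.

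GPR183 differed by 2.25 ± 0.24, CCR7 by 1.94 ± 0.19 and CXCR4 by 1.33 ± 0.15. CXCR5 differed by 1.26 ± 0.37, and it no longer passed without LP-1 untreated replicate 1 or 2 or without Raji untreated replicate 2, with values of 0.73 to 1.80 over the alternatives. RGS1 differed by -1.60 ± 0.23. P2RY10 was the gene that did not pass, at -0.36 ± 0.29 with a 95% interval of -0.98 to 0.27.

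**Figure D3:**
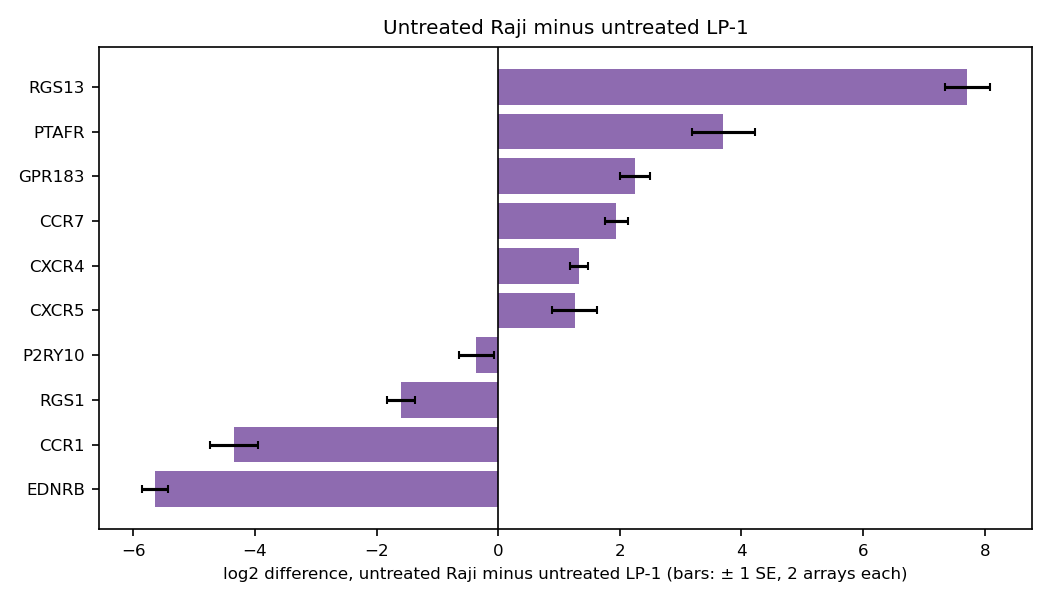
Difference of untreated Raji minus untreated LP-1 (horizontal axis, log2, bars ± 1 SE, 2 arrays each) for the 10 genes, ordered by value. RGS13 stands at 7.71 and EDNRB at -5.64, with P2RY10 at -0.36.

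The wider pathway was examined through 6 lists that leave out the 10 genes, with 136 of 166 listed genes measured by a probe set with 1 symbol. At 4 h in LP-1, 3 list genes were lower with BET inhibitor than with inactive enantiomer and 0 were higher, where 1.9% of all probe sets were lower and 0.377% higher. All 3 were effectors downstream of the receptors. PIK3CG, the catalytic subunit of the PI3 kinase driven by G protein beta-gamma subunits, had 4.63 and 4.97 with inhibitor and 5.82 and 5.86 with inactive enantiomer (-1.04 ± 0.23, adjusted p = 0.0378). WIPF1, the partner of the actin regulator WASP, had 6.92 and 6.90 with inhibitor and 7.65 and 7.88 with inactive enantiomer (-0.86 ± 0.15, adjusted p = 0.0111). The PIK3CG call was marginal: it held in 14 of 26 alternative fits, against 21 for WIPF1, and was lost after median centring (adjusted p = 0.0612). The count was 1, and neither of these genes was called, when LP-1 inhibitor replicate 1 or either LP-1 inactive replicate at 4 h was left out, when the lines were fitted apart, and after quantile normalization.

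At 8 h in LP-1, 5 list genes were lower and 2 higher, where 1.97% of all probe sets were lower and 3.76% higher. WIPF1 had 6.11 and 6.48 with inhibitor and 7.86 and 8.06 with inactive enantiomer (-1.67 ± 0.15, adjusted p = 8.71e-05). PIK3CG fell by 1.10 ± 0.23 (adjusted p = 0.0165). Also lower were RGS16, which acts on Gi and Gq subunits (-1.0 ± 0.24, adjusted p = 0.0266), and P2RY6, a receptor for UDP (-0.92 ± 0.22, adjusted p = 0.0316). The P2RY6 means were 5.40 with inhibitor, 6.32 with inactive enantiomer and 5.94 in untreated LP-1, so the inactive mean lay above the untreated one. GNAI2, the Gi subunit most used by chemokine receptors in lymphocytes, was higher, at 8.51 and 8.48 with inhibitor and 7.74 and 7.70 with inactive enantiomer (0.77 ± 0.16, adjusted p = 0.0147). LPCAT2, an enzyme that makes platelet-activating factor, was higher by 0.80 ± 0.21 (adjusted p = 0.0409). Its levels were 6.94 and 6.75 with inhibitor, 6.06 and 6.03 with inactive enantiomer, and 6.90 and 6.45 in untreated LP-1. The LPCAT2 inhibitor arrays were thus close to the untreated level, and the inactive arrays lay below it. The LPCAT2 call held in 13 of 26 alternative fits, and it was lost after median centring, with the replicate block (adjusted p = 0.0663) and with the lines fitted apart. GNAI2 was called in 21, P2RY6 in 20, RGS16 in 22 and PIK3CG in 23 of the 26. The 7 calls became 1 to 4 when any of the 4 arrays compared was left out and 2 when the lines were fitted apart, and WIPF1 was called in all 26 alternative fits.

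In Raji at 4 h, 1 list gene was lower and 1 higher, where 0.341% of all probe sets were lower and 1.44% higher. S1PR1, the sphingosine 1-phosphate receptor that leads lymphocytes out of lymph nodes, had 2.81 and 2.71 with inhibitor and 4.42 and 3.54 with inactive enantiomer (-1.22 ± 0.26, adjusted p = 0.0366). These S1PR1 levels are low, and untreated Raji had 3.85 and 3.86. RGS2, which acts mainly on Gq, had 6.94 and 7.05 with inhibitor and 5.74 and 6.46 with inactive enantiomer (0.90 ± 0.20, adjusted p = 0.0448). Both calls were marginal: S1PR1 was called in 15 and RGS2 in 8 of 26 alternative fits, and neither was called with the lines fitted apart, without either LP-1 inactive replicate at 4 h, without any untreated replicate of LP-1 or Raji, without either Raji inhibitor replicate at 4 h, or without Raji inactive replicate 1 at 4 h. RGS2 was also lost without either 8 h inhibitor replicate of LP-1 or Raji or either 8 h inactive replicate of LP-1, and after quantile normalization. With the replicate number as a block the adjusted p was 0.0588 for S1PR1 and 0.0778 for RGS2.

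In Raji at 8 h, 2 list genes were lower and 1 higher, where 1.05% of all probe sets were lower and 0.827% higher. WIPF1 had 8.49 and 8.32 with inhibitor and 9.36 and 9.14 with inactive enantiomer (-0.85 ± 0.15, adjusted p = 0.0156). DOCK8, an exchange factor of migrating leukocytes, had 5.20 and 5.66 with inhibitor and 6.25 and 6.19 with inactive enantiomer (-0.79 ± 0.17, adjusted p = 0.0383). LPAR3, a lysophosphatidic acid receptor, was higher by 0.79 ± 0.16 (adjusted p = 0.0284) at a low level, 3.22 and 3.32 with inhibitor and 2.66 and 2.30 with inactive enantiomer. Untreated Raji had 3.32 and 3.28 for LPAR3, so the inhibitor arrays were close to the untreated level and the inactive arrays lay below it. The count was 1 without any one of the 4 arrays compared, 5 without either Raji inactive replicate at 4 h, 0 when the lines were fitted apart and 5 after quantile normalization. WIPF1 passed at both times in LP-1 and at 8 h in Raji, and at 4 h in Raji its value was -0.56 ± 0.15 (adjusted p = 0.085).

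By list, the effectors held 3, 3, 0 and 2 calls among 23 measured genes in LP-1 at 4 and 8 h and Raji at 4 and 8 h. Their medians were -0.11, -0.02, -0.03 and -0.11 in that order. The 14 other chemokine receptors measured, of 19 listed, gave 0 calls in all 4 comparisons with limma, and 2, 1, 0 and 2 of them had an unadjusted p under 0.05. The medians of these receptors were 0.14, 0.04, -0.21 and -0.08. Among 38 other receptors for chemoattractants, lipids and nucleotides, of 47 listed, there were 0, 1, 1 and 1 calls, with medians of 0.12, -0.01, -0.15 and -0.08. The 16 other RGS genes, of 18 listed, gave 0, 1, 1 and 0 calls, with medians of 0.05, 0.07, -0.07 and -0.08. The 28 G proteins, receptor kinases and arrestins, of 33 listed, gave 0, 1, 0 and 0 calls, with medians of 0.01, 0.14, 0.05 and -0.11. The 17 ligands and ligand enzymes, of 22 listed, gave 0, 1, 0 and 0 calls, with medians of 0.11, -0.02, -0.17 and 0.01.

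**Figure D4:**
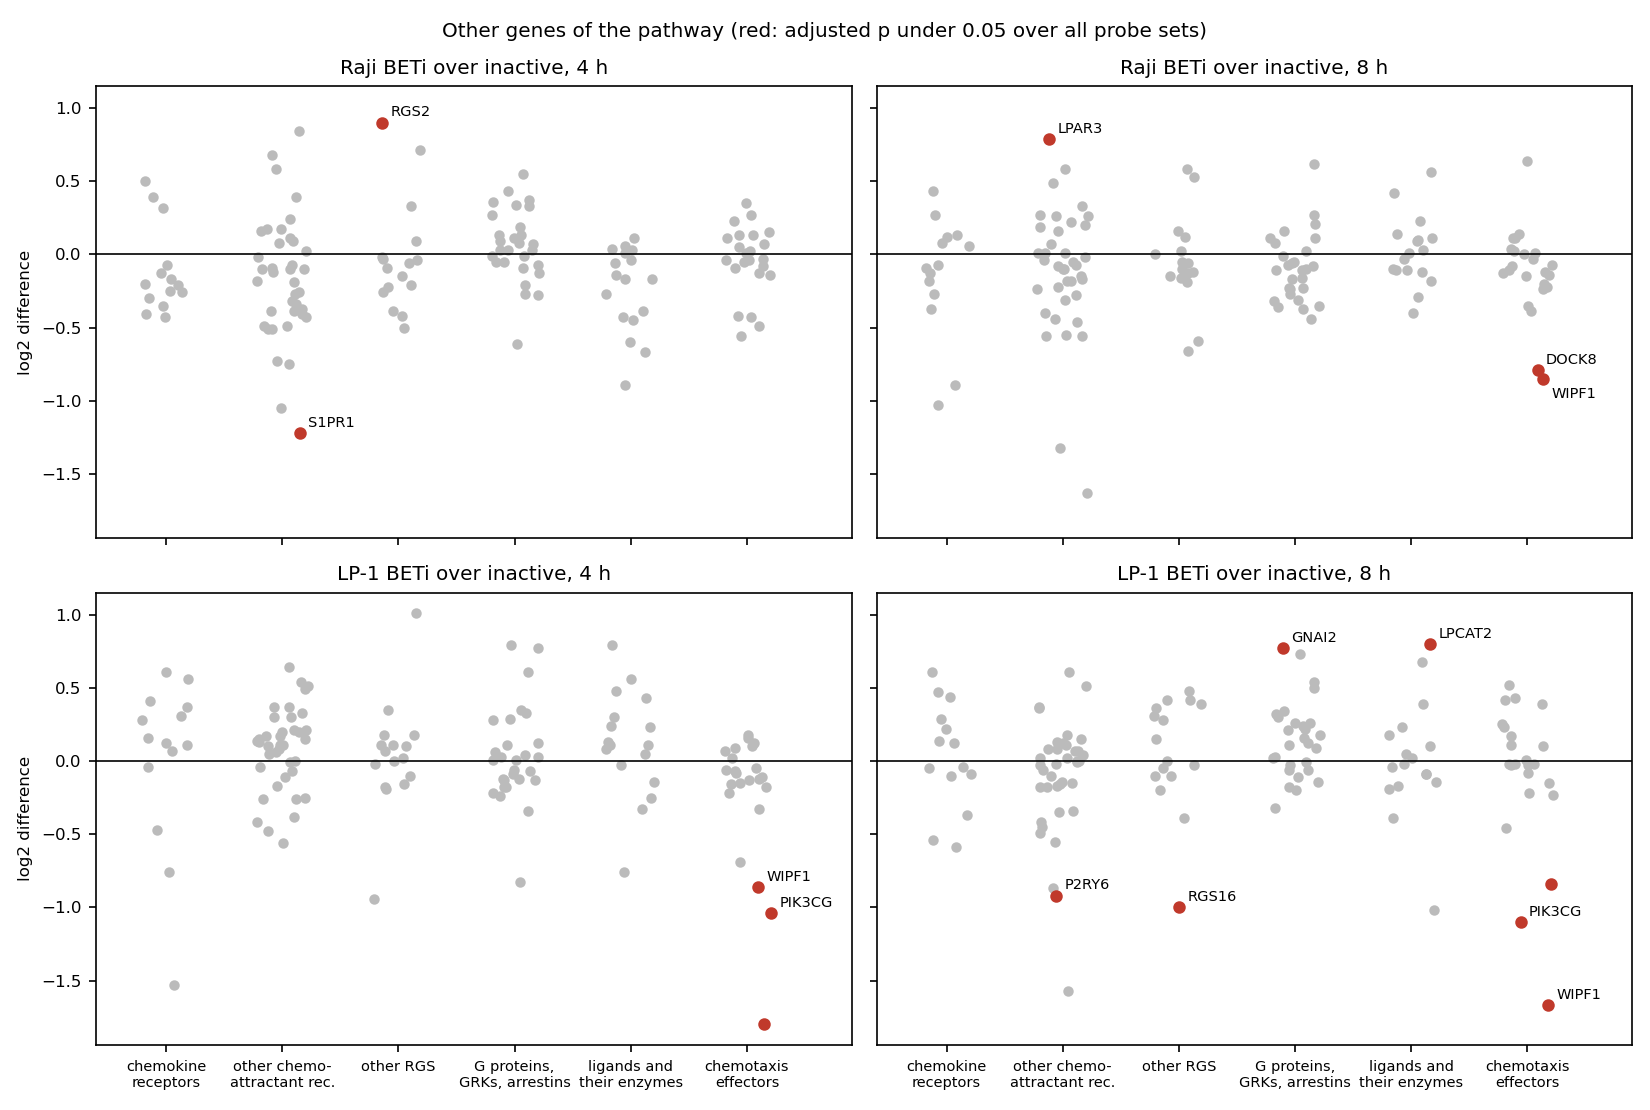
Difference of BET inhibitor minus inactive enantiomer (vertical axis, log2) for 136 pathway genes other than the 10, by list, in Raji (upper panels) and LP-1 (lower panels) at 4 h (left) and 8 h (right). Each point is a gene, red where its adjusted p over all probe sets was under 0.05, with the genes described in the text named. Red points are few in each panel, with WIPF1 at -1.67 the lowest in LP-1 at 8 h.

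None of the 136 genes passed between inactive enantiomer and untreated cells in limma, in LP-1 or Raji at 4 or 8 h, where 7, 19, 14 and 7 had an unadjusted p under 0.05 in the order LP-1 at 4 and 8 h, Raji at 4 and 8 h. Over all probe sets 0.0136%, 0.504%, 0% and 0% passed. The difference of the response between lines was past the threshold for 0 of the 136 genes at 4 h and 0 at 8 h, with 17 at an unadjusted p under 0.05 each time and 0.114% and 0.245% of all probe sets passing. The effects described above for list genes in one line are therefore not shown to differ from those in the other. WIPF1, for example, differed by 0.30 ± 0.21 at 4 h (adjusted p = 0.521) and 0.82 ± 0.21 at 8 h (adjusted p = 0.185), Raji minus LP-1.

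Between untreated lines, 41 of the 136 genes passed (30.1%), 25 higher and 16 lower in Raji, where 24.3% of all probe sets passed, 6.79% higher and 17.5% lower, with a median of 0.08 over the lists and -0.03 over all probe sets. On the lower side the largest included the G protein alpha subunits GNAI1 (3.24 and 3.78 in Raji, 8.55 and 8.62 in LP-1, adjusted p = 1.63e-07) and GNAQ (3.99 and 4.04 in Raji, 7.89 and 8.19 in LP-1, adjusted p = 9.37e-07). Between them in size was LPCAT2 (-4.17 ± 0.21, adjusted p = 7.23e-09). On the higher side were the gamma subunit GNG2 (3.01 ± 0.31, adjusted p = 8.56e-06), the receptor GPR18 (2.65 ± 0.40, adjusted p = 0.000243) and DOCK8 (2.63 ± 0.17, adjusted p = 9.99e-08).

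The neighbours of the receptors and RGS genes were read from the order of genes in RefSeq. CCR1 lies on chromosome 3 between FYCO1, CXCR6 and XCR1 on one side and CCR2, CCRL2 and LTF on the other. RGS1 and RGS13 lie among PLA2G4A, BRINP3, RGS18, RGS2, UCHL5 and RO60. Of 48 tests of these 12 genes against inactive enantiomer, 5 passed and 9 had an unadjusted p under 0.05. Over all probe sets 1.9% were lower and 0.377% higher in LP-1 at 4 h, 1.97% and 3.76% in LP-1 at 8 h, 0.341% and 1.44% in Raji at 4 h, and 1.05% and 0.827% in Raji at 8 h. FYCO1, an adaptor that carries autophagosomes along microtubules, accounted for 4 of the 5 and RGS2 in Raji at 4 h for the other.

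FYCO1 was lower with inhibitor in both lines. In LP-1 it had 4.67 and 4.74 with inhibitor and 5.48 and 5.57 with inactive enantiomer at 4 h (-0.82 ± 0.13, adjusted p = 0.00765). The LP-1 difference at 8 h was -0.95 ± 0.13 (adjusted p = 0.00162). In Raji FYCO1 differed by -0.64 ± 0.13 at 4 h (adjusted p = 0.0333) and -0.61 ± 0.13 at 8 h (adjusted p = 0.0371). The 8 h LP-1 call held in all 26 alternative fits, the 4 h LP-1 call in 22, and each Raji call in 15. The chemokine receptors CCR2, CXCR6, XCR1 and CCRL2 beside CCR1 passed in none of the 4 comparisons. They were dim, at 1.84 to 4.79 on the inactive arrays, so a fall as large as that of CCR1 could hardly be seen. Their differences ran between -1.53 ± 0.50 (CCRL2) and 0.61 ± 0.41 (CCR2), both in LP-1 at 4 h. CXCR6 in Raji at 8 h was at -1.03 ± 0.27 (limma, adjusted p = 0.0808).

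Likeness of pattern was measured as Pearson's r over the 10 group means, which share arrays and the gap between lines, and is given without a p. For CCR1 the closest genes were VXN (r = 0.987), NRROS (r = 0.977) and COG7 (r = 0.973). For PTAFR they were TFEB (r = 0.989), ADAM28 (r = 0.985) and TMBIM1 (r = 0.981). GPR183 was followed most closely by XKR3 (r = 0.988), ZPBP2 (r = 0.984) and CDKL1 (r = 0.977). For RGS1 they were PALS2 (r = 0.958), JADE1 (r = 0.958) and EXOSC3 (r = 0.957).

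With BET inhibitor against inactive enantiomer, plasma cell markers were called lower in 1 of 6 at 4 h and 1 at 8 h in LP-1 and 2 at each time in Raji. B cell markers were called lower in 1 of 6 at each time in LP-1 and in 1 at 4 h and 2 at 8 h in Raji. Of all probe sets, 1.9% at 4 h and 1.97% at 8 h were lower in LP-1, and 0.341% at 4 h and 1.05% at 8 h in Raji. No marker of these lists was called higher, and no T, NK or myeloid marker was called in any of the 4 comparisons. The part of marker changes in the values above was not tested.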

How the data were processed

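Total RNA of LP-1 and Raji was measured on 20 exon arrays in 10 groups of 2. The deposited values are log2 expression per transcript-level probe set, which the authors made with RMA in Affymetrix Expression Console on hg19, per the submitters' processing notes, with no versions given. They were used as deposited. Of 22011 probe sets, 14432 had 1 gene symbol in the platform's table, 2408 several and 5171 none. Of the first, 14404 matched RefSeq (GRCh38.p14) by Entrez identifier, giving 14232 genes.

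Group means were estimated from the 20 arrays together in limma 3.58.1 (R 4.3.3), with 10 residual and 2.59 prior degrees of freedom. Tests were two-sided, p-values were adjusted across every probe set (Benjamini-Hochberg), and the threshold was 0.05. Scripts were tested on simulated data. The number of arrays limits the precision.

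The genes, lists and markers were chosen with earlier results of these data known. The text names the 10 genes, the called list genes (at most 4 each way per list, or 3 over all lists between untreated lines), up to 3 measured neighbours each side of CCR1, RGS1 and RGS13, and the 3 genes most like CCR1, PTAFR, RGS1 and GPR183. The values of 1 called list gene are not reported here. The lists hold other chemokine receptors, other chemoattractant receptors, other RGS genes, G proteins with receptor kinases and arrestins, ligands with their enzymes, and effectors. Alternatives were quantile normalization, median centring, an intensity trend, leaving out the dimmest probe sets, fitting each line apart, a replicate block, and leaving out each array.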

Additional observations from a re-analysis of the deposited data

Results flagged for a closer look

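Each of 3 genes had inhibitor arrays on opposite sides of the inactive arrays in the 2 lines. GPR183 at 4 h differed by -1.64 in Raji and 0.28 in LP-1 (log2, BET inhibitor minus inactive enantiomer), a gap of -1.92 that was not tested. CXCR4 at 8 h differed by 0.20 in Raji and -0.32 in LP-1, a gap of 0.52 that was not tested. S1PR1 at 8 h differed by -0.55 in Raji and 0.61 in LP-1, and the gap of -1.16 did not pass in limma (adjusted p = 0.313). In LP-1 at 8 h the S1PR1 means were 5.82 with inhibitor and 5.21 with inactive enantiomer, and 5.96 untreated. The LP-1 inhibitor mean was thus not above the untreated mean, and the inactive mean was low. At 4 h the LP-1 difference of S1PR1 was -0.42 ± 0.26.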

How the results depend on the processing

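With 2 arrays per group and 1 line per tumour, small differences and dim genes are poorly resolved. With the dimmest 7337 probe sets left out, CCR1, GPR183, CXCR5 and LPAR3 gave no value. Alternatives for FYCO1 and for counts of inhibitor arrays below inactive arrays were chosen after seeing the data. No called value changed sign.

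The number of pathway genes called between BET inhibitor and inactive enantiomer was, in LP-1 at 4 h, 3 as reported, 1 with the lines fitted apart, 1 after quantile normalization, 5 without the dimmest probe sets, and 1 to 4 without one array. In LP-1 at 8 h it was 7 as reported, 2 with the lines apart and 1 to 9 without one array. In Raji at 4 h it was 2 as reported, 0 with the lines apart, 1 after quantile normalization and 0 to 2 without one array. In Raji at 8 h it was 3 as reported, 0 with the lines apart, 5 after quantile normalization and 1 to 5 without one array. For inactive enantiomer over untreated LP-1 at 8 h it was 0 as reported, 2 without the dimmest probe sets and 0 to 1 without one array (LP-1 inhibitor replicate 1 or 2 at 4 h). For the response of Raji minus LP-1 at 4 h it was 0 as reported, 1 without the dimmest probe sets, and 0 to 1 without one array (LP-1 inhibitor replicate 2 at 4 h or LP-1 inactive replicate 1 or 2 at 8 h).

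Between untreated lines, leaving out one array gave 8 to 9 of the 10 genes and 30 to 42 list genes called. Of the 10 genes, those with every inhibitor array below the inactive arrays then numbered 5 to 9 (Raji, 4 h), 5 to 6 (Raji, 8 h) and 6 to 8 (LP-1, either time). With an array left out this condition is easier to meet, and no share over all probe sets was taken for these counts. A lone array was assumed to vary like the other groups.

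With the replicate number within a line as a block, the count of called pathway genes in Raji at 4 h was 0, and for Raji minus LP-1 at 4 h it was 1. The block left CXCR5 between untreated lines at an adjusted p of 0.0739, and in LP-1 at 8 h LPCAT2 at 0.0663 and P2RY6 at 0.0528. The labels do not say whether the replicate numbers mark a shared culture or batch. Correlations of replicate differences between groups ran between -0.03 and 0.12 in LP-1 and between -0.16 and 0.05 in Raji. Low correlations over all probe sets cannot exclude pairing of the samples.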
